A study of Sus scrofa with 12 samples.

Results

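The lysosome genes were taken as the genes of the deposited pig table that carry the KEGG lysosome pathway in the authors' annotation. The pathway was written beside 123 of 20674 genes. Of 4 gene names set aside by the selection, 3 carried it, which left 120 lysosome genes. RNA was measured in endometrium, the inner lining of the uterus, of Landrace × Yorkshire sows of the second or the third parity. L − N and L + N received a diet with 3.73% crude fiber, and H − N and H + N one with 7.46%, in which soybean bran and beet pulp supplied the added fiber. The diets of L + N and H + N also contained 0.05% N-carbamylglutamate (NCG), an activator of the animal's own synthesis of arginine. All groups were fed for 114 days from breeding through gestation, and each is represented by 3 libraries. The labels number the libraries without tying them to single sows, so p-values measure the spread between these samples. L − N, the diet at the conventional fiber level without NCG, is the basal control.

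The lysosome is the acidic organelle in which proteins, glycans, lipids and nucleic acids delivered by endocytosis, phagocytosis and autophagy are broken down. Its soluble hydrolases are tagged with mannose 6-phosphate in the Golgi, carried by receptors and clathrin adaptors, and work at the low pH set by a proton pump, while membrane proteins protect the organelle and export the products. In the uterus, lysosomal proteases are known from glandular secretion, from macrophages and from the remodelling of tissue around pregnancy, and macrophages are rich in lysosomes. RNA of whole tissue cannot tell fewer cells of a type from less RNA per cell, and this applies to every value that follows.

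Libraries held 14369781 to 19309724 counted reads. Of the 120 genes, 116 passed the filter on low counts. The other 4 were SPAM1, a hyaluronidase of sperm, with at most 1 count in a library, DNASE2B, a DNase known from the lens, with at most 3, PSAPL1, a relative of prosaposin, with 0 counts in every library, and LOC100154047, annotated as cathepsin G, with at most 7. By role, the 120 genes comprise 16 proteases, 18 glycosidases, 8 sulfatases with their activator, 11 lipid and nucleic acid hydrolases with their activator proteins, 23 membrane proteins, 10 proton pump subunits and 30 proteins of sorting and coats, with 4 genes outside these lists. In the table, 30 of them overlap another gene. The counting strand is not given in the sources used here, so such values are uncertain, and this is stated where a gene is described.

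Per gene length, the most abundant lysosome genes were proteases and the activator precursor. CTSB, encoding cathepsin B, had a mean of 543 FPKM (the deposited value per gene length and depth) over the 12 libraries, and PSAP, encoding prosaposin, the precursor of the saposins that help enzymes degrade sphingolipids, had 502 FPKM. They were followed by CTSK (cathepsin K, 374 FPKM), CTSH (cathepsin H, 339), CTSD (cathepsin D, 254), LAPTM4A (a small membrane protein, 236), LGMN (legumain, 232), CD63 (a tetraspanin, 223), ASAH1 (acid ceramidase, 216) and CTSV (cathepsin V, 196). The median of the mean FPKM values was 107 over the 16 proteases and 94.7 over the 9 tested lipid and nucleic acid hydrolases and activators. It was 21.4 over the 17 glycosidases as well as over the 8 sulfatases, and between 15.4 and 16.9 over the membrane proteins, the proton pump and the sorting proteins. The organelle's defining membrane markers were all present, with LAMP1 at 166 FPKM, LAMP2 at 111 and SCARB2 at 131. Among the glycosidases, the proton pump subunits and the sorting proteins, the most abundant were HEXA (112 FPKM), the proton pump subunit ATP6V0C (109.5) and the clathrin light chain CLTA (95.4).

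Together the 120 genes took 1.77, 3.42 and 3.13% of all counts in L − N replicates 1, 2 and 3. In the 9 libraries of the other groups the share lay between 1.36 and 1.84%. L − N replicates 2 and 3 therefore stood apart from the other 10 libraries, and L − N replicate 1 lay within the range of the other groups. L − N replicates 2 and 3 also stood apart when each gene was counted equally, as the deviation of its log2 CPM (counts scaled to library size with TMM factors) from its own mean over the 12 libraries. The median deviation of the 116 genes was 0.016, 0.53 and 0.35 in L − N replicates 1, 2 and 3, and −0.14 to −0.037 in the other 9 libraries. By this measure L − N replicate 1 lay above the other 9, by less than replicates 2 and 3. Over all 15351 genes tested, the median deviation of a library stayed between −0.021 and 0.011. Of the 116 genes, 55 had their highest value in L − N replicate 2, 24 in L − N replicate 3 and 3 in L − N replicate 1, against 12.6, 10.2 and 9.51% of all genes. The highest group mean was that of L − N for 87 of the 116 genes (75% against 32.8% of all genes tested). Because the higher level rests mainly on 2 libraries, the numbers of lysosome genes that passed against L − N are also given without these libraries. Over all genes tested, however, L − N replicates 2 and 3 were close to each other, with a mean chi-square per gene of 23.3 between their counts. Replicate 1 differed from them by 99.8 and 75.1, while pairs within the other groups ran from 23.5 to 81.9. Which L − N library is typical of the group cannot be told from these data.

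**Figure D1:**
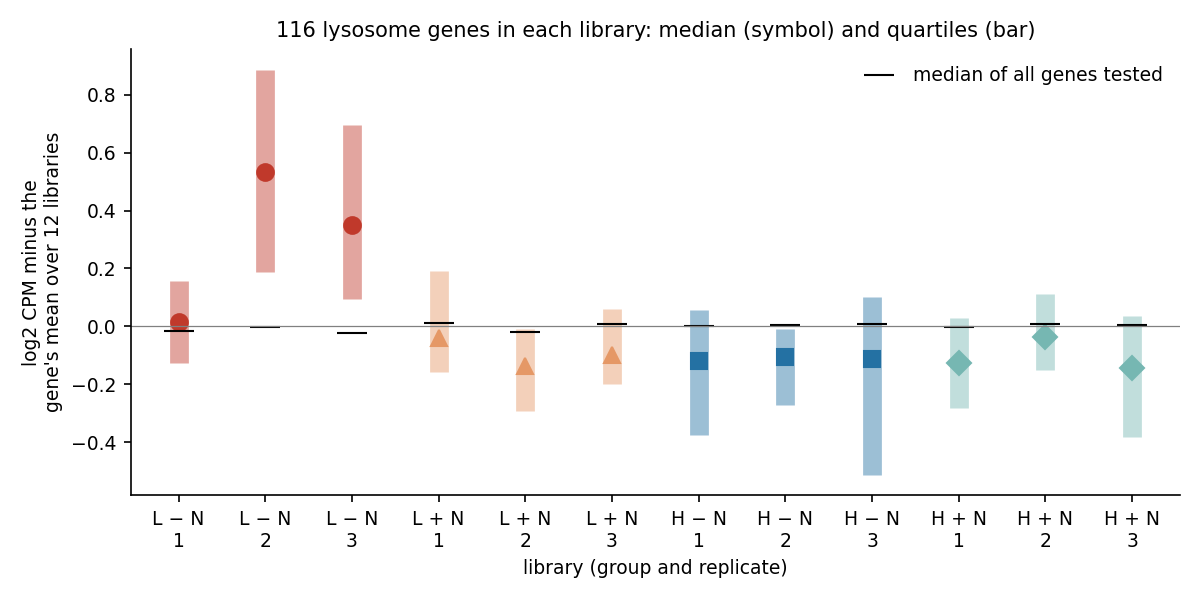
Deviation of log2 CPM from the gene's own mean, for the 116 tested lysosome genes in each of the 12 libraries. Symbols give the median over the genes, shaded bars the quartiles, and black lines the median of all genes tested. L − N replicates 2 and 3 lie at 0.53 and 0.35, and the other 10 libraries between −0.14 and 0.016.

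To ask whether the high-fiber diet without NCG went with a different level of these genes, H − N was compared with L − N. By the paper's list of ingredients, the high-fiber diets also held less corn and had soybean oil added. With edgeR (quasi-likelihood fit, p-values adjusted over all genes by the method of Benjamini and Hochberg), 17 of the 116 lysosome genes were differentially expressed. The term is used for an adjusted p below 0.05 together with an absolute log2 fold change over 1. All 17 were lower in H − N. The background was 2.91% of all genes tested in either direction and 2.01% lower in H − N, while the 17 were 14.7% of the lysosome genes. Without the threshold on the fold change, 26 lysosome genes passed, all lower in H − N, against 3.71% of all genes. The median log2 fold change of the lysosome genes was −0.42, against 0.03 over all genes tested, and 21 of the 116 had a value above 0, against 53.5% of all genes. The groups did not overlap for 45 genes that were lower in H − N, against 12.7% of all genes. The number of differentially expressed lysosome genes dropped to 0 when L − N replicate 3 or H − N replicate 1 was left out, and the share of all genes dropped to 0.0391 and 0.0%. Leaving out L − N replicate 2 gave 3 genes (0.814% of all genes), H − N replicate 2 gave 4 (1.07%) and H − N replicate 3 gave 2 (1.04%), whereas omitting L − N replicate 1 gave 30 (7.24%). By the adjusted p-value alone the count was also 0 in the fits without L − N replicate 3 or H − N replicate 1, and at most 52, in the fit that omitted L − N replicate 1, where 13.1% of all genes passed. With L − N replicate 1 as the only library of its group, taken to vary like the others, both counts were 0 (0.0782% of all genes) in every role, and the median was −0.10.

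**Figure D2:**
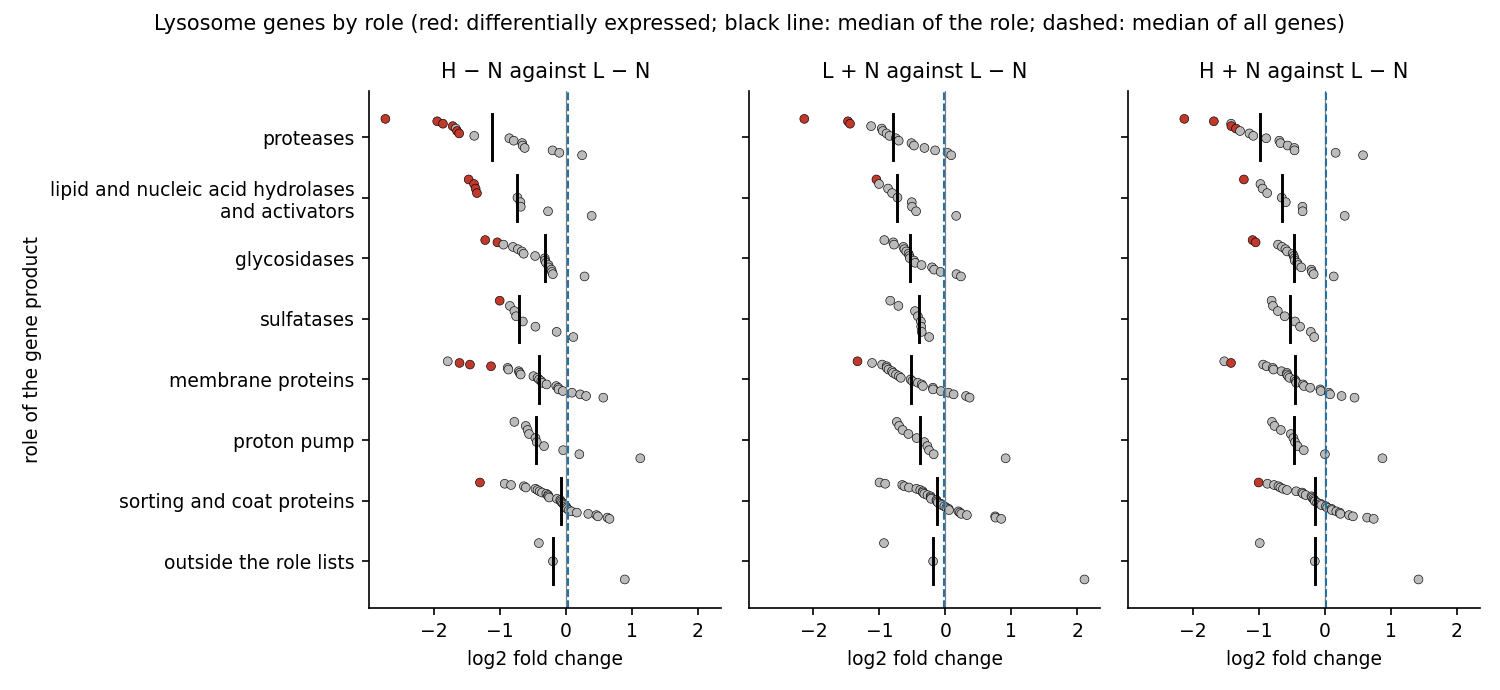
Log2 fold changes of the 116 tested lysosome genes against L − N, by role of the gene product, for H − N, L + N and H + N. Each point is a gene, red where it was differentially expressed, black lines are medians of a role and dashed lines the median of all genes tested. The protease medians are −1.13, −0.80 and −0.98, and those of the sorting and coat proteins −0.08, −0.13 and −0.15.

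Among the proteases, 6 of 16 were differentially expressed and lower in H − N (CTSA, CTSB, CTSH, CTSK, CTSZ and LGMN). The other 10 did not pass, and the median log2 fold change was −1.13. CTSK (gene identifier 397569, chromosome 4, 98389459 to 98404969) encodes cathepsin K, a collagenase best known from osteoclasts. Its level was 1437, 4528 and 4536 CPM in L − N replicates 1, 2 and 3, 717, 765 and 902 in L + N, 282, 878 and 412 in H − N and 698, 1214 and 490.0 in H + N. The L − N libraries were above the other 9, and the fold change of H − N was −2.74 (SE 0.525, adjusted p = 0.0235), the lowest among the lysosome genes in this comparison. CTSK overlaps ARNT on the same strand, so their reads could be shared.

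CTSB (gene identifier 100037961, chromosome 14, 15014139 to 15035081), the cysteine protease cathepsin B, stood at 1239.7, 4031 and 4071 CPM in L − N, 1231, 1059.8 and 1140.0 in L + N, 1014, 1066 and 758 in H − N and 1199, 1331 and 1149.8 in H + N. L − N replicates 2 and 3 were above every other library, while replicate 1 lay inside the range of the other groups. The log2 fold change of H − N was −1.72 (SE 0.353, adjusted p = 0.0279), and −0.39 with L − N replicate 1 alone. The aminopeptidase cathepsin H, encoded by CTSH, had 342, 1459 and 1237 CPM in L − N against 218, 278 and 338 in H − N, a log2 fold change of −1.87 (SE 0.401, adjusted p = 0.0300). Legumain, an asparaginyl endopeptidase that also matures other cathepsins, had 365, 1055 and 1111 CPM in L − N and 243, 306 and 256 in H − N, with a log2 fold change of −1.65 (SE 0.327, adjusted p = 0.0258). For CTSH and LGMN, as for CTSB, replicates 2 and 3 of L − N were the high libraries. CTSZ (cathepsin Z, a carboxypeptidase) had a log2 fold change of −1.95 and CTSA (cathepsin A, the protective protein of β-galactosidase and neuraminidase) one of −1.62, with adjusted p-values of 0.0330 and 0.0279 by edgeR. CTSZ overlaps NELFCD, and CTSA overlaps NEURL2 and PLTP, on the opposite strand.

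Some abundant proteases did not pass. CTSD, the aspartic protease cathepsin D, had 337, 1345 and 966 CPM in L − N and 287, 352 and 191 in H − N, and its log2 fold change of −1.67 had an adjusted p = 0.0525 by edgeR. L − N replicate 1 lay within the range of H − N. CTSL, cathepsin L, had 38.5, 56.6 and 49.6 CPM in L − N and 17.4, 30.8 and 31.7 in H − N, which do not overlap, with a log2 fold change of −0.86 (SE 0.376, adjusted p = 0.186). CTSL shares its orthology identifier with CTSV on the same chromosome, so reads could be exchanged between these related genes.

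Among the lipid and nucleic acid hydrolases and their activators, 4 of 9 tested genes were differentially expressed and lower in H − N, and the median was −0.74. PSAP (gene identifier 100153167, chromosome 14, 74734185 to 74820645), the saposin precursor, stood at 1538, 3241 and 2838 CPM in L − N, 1253, 1147 and 1290.3 in L + N, 831, 1079 and 826 in H − N and 1085, 1307 and 867 in H + N. All L − N libraries were above the other 9, with a log2 fold change of H − N of −1.48 (SE 0.256, adjusted p = 0.0194). PSAP overlaps CDH23 on the opposite strand. LIPA, the acid lipase that frees cholesterol from its esters, had 252, 784 and 679.7 CPM in L − N and 225, 260.1 and 178 in H − N, a log2 fold change of −1.37 (SE 0.325, adjusted p = 0.0384). Its lowest L − N library lay within the range of H − N, and the gene overlaps several IFIT genes on the opposite strand. PLA2G15, a phospholipase, and DNASE2, the acid DNase of phagocytes, had log2 fold changes of −1.39 and −1.35 (adjusted p = 0.0396 and 0.0423, edgeR). ASAH1, acid ceramidase, did not pass and had a value on the other side of 0, with 391, 485 and 425 CPM in L − N and 680.4, 642 and 382 in H − N (log2 fold change 0.39 (SE 0.203, adjusted p = 0.266)).

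Of 17 tested glycosidases, 2 were differentially expressed and lower in H − N, among them HEXA, and the median was −0.32. HEXA (gene identifier 100142664, chromosome 7, 60878531 to 60911537) encodes the α chain of β-hexosaminidase A, which degrades GM2 ganglioside. It had 218, 407 and 379 CPM in L − N, 187, 166 and 176 in L + N, 159, 156 and 173 in H − N and 142, 179 and 149.6 in H + N. The L − N libraries were above the other 9, and the log2 fold change of H − N was −1.04 (SE 0.199, adjusted p = 0.0235). HEXA overlaps a long noncoding RNA whose strand is not in the table. GAA, the α-glucosidase that degrades glycogen, overlapped between the groups, with 81.9, 113 and 97.1 CPM in L − N and 68.7, 62.8 and 120.4 in H − N (log2 fold change −0.21 (SE 0.251, adjusted p = 0.644)).

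Among 8 sulfatases and their activator, ARSB was differentially expressed and lower in H − N and the median was −0.71. ARSB, which removes sulfate from dermatan and chondroitin sulfate, had 81.1, 137 and 157 CPM in L − N and 66.5, 61.6 and 58.6 in H − N, with a log2 fold change of −1.01 (SE 0.207, adjusted p = 0.0279).

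Of 23 membrane proteins, 3 were differentially expressed and lower in H − N (CTNS, LAPTM5 and CD68), and the median was −0.41. CTNS (gene identifier 100515235, chromosome 12, 49730741 to 49754362) encodes cystinosin, the exporter of cystine from the lysosome. It stood at 44.8, 67.5 and 69.3 CPM in L − N, 26.6, 23.5 and 21.9 in L + N, 23.2, 24.0 and 18.9 in H − N and 22.2, 26.1 and 19.5 in H + N. All L − N libraries, replicate 1 included, were above the other 9, and the log2 fold change of H − N was −1.46 (SE 0.187, adjusted p = 0.0141). In the fits that left out 1 library, CTNS was differentially expressed in 10 of 12. With L − N replicate 1 as the only library of its group, the fold change was −1.02 (edgeR's adjusted p = 0.12). CTNS overlaps SHPK and TAX1BP3 on the opposite strand.

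LAPTM5, a membrane protein of blood cells, had 279, 568 and 565 CPM in L − N and 234, 234 and 173 in H − N, with a log2 fold change of −1.14 (SE 0.261, adjusted p = 0.0353). CD68, the macrosialin of macrophages, had 53.3, 222 and 185 CPM in L − N and 46.9, 66.9 and 36.1 in H − N (log2 fold change −1.62 (SE 0.420, adjusted p = 0.0495)). Replicate 1 of L − N was between the H − N libraries for CD68, and in the fits without 1 library the gene passed in 1 of 12. The general markers of the organelle had smaller values. LAMP1, its main structural glycoprotein, had 341, 622 and 538 CPM in L − N and 286, 292 and 234 in H − N (log2 fold change −0.89 (SE 0.201, adjusted p = 0.0344)), and passed only the adjusted p-value. LAMP2, the partner of LAMP1, had a log2 fold change of −0.30, CD63 one of −0.41, SCARB2, the carrier of β-glucocerebrosidase, one of −0.72 and MCOLN1, a calcium channel, one of −0.43, with adjusted p-values from 0.121 to 0.264 by edgeR. SLC11A1, a metal transporter of phagocytes, had the lowest fold change of the membrane proteins, −1.79 (SE 0.566, adjusted p = 0.0868), and did not pass.

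None of the 10 proton pump subunits was differentially expressed in any of the 8 comparisons by edgeR, and their median in H − N was −0.45. ATP6V0C, the proteolipid of the membrane ring, had 126, 228 and 177 CPM in L − N and 119.6, 124 and 109.9 in H − N (log2 fold change −0.58 (SE 0.191, adjusted p = 0.0953)). ATP6V0D2, the isoform known from osteoclasts and macrophages, was low, with 8.66, 1.44 and 1.48 CPM in L − N and 7.41, 11.8 and 6.14 in H − N, and L − N replicates 2 and 3 were the lowest of the 12 libraries. Its log2 fold change of 1.13 (SE 0.664, adjusted p = 0.321) was the highest of the lysosome genes in H − N and did not pass.

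The 30 sorting and coat proteins had a median of −0.08 in H − N, and 1 was differentially expressed and lower. This was GNPTAB (gene identifier 100523554, chromosome 5, 82264640 to 82460819), which encodes the α and β subunits of the enzyme that adds the mannose 6-phosphate tag. It had 127, 261 and 333 CPM in L − N, 119, 118 and 124 in L + N, 89.3, 105 and 96.8 in H − N and 123, 126 and 111 in H + N. L − N replicates 2 and 3 were far above the other libraries, replicate 1 only just above them, and the log2 fold change of H − N was −1.31 (SE 0.261, adjusted p = 0.0265). GNPTAB overlaps DRAM1, itself the gene of a lysosomal membrane protein, on the opposite strand. Of the receptors for the tag, IGF2R had 124, 199 and 175 CPM in L − N and 108, 96.9 and 115 in H − N (log2 fold change −0.64 (SE 0.169, adjusted p = 0.0520)), and M6PR had 191, 236 and 291 and 158, 175 and 224 (−0.37 (SE 0.176, adjusted p = 0.228)). Neither passed. CLTA, a clathrin light chain, had a log2 fold change of −0.02 (SE 0.112, adjusted p = 0.918), and its groups overlapped.

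Outside these roles, 3 genes were tested and none passed. PPP1R11, described as an inhibitor of protein phosphatase 1 but linked in the table to a thioesterase of the pathway, had a log2 fold change of −0.20 (SE 0.102, adjusted p = 0.259) in H − N. LOC100520753, a further gene annotated as macrosialin whose reads could be shared with CD68, had 9.23, 28.3 and 4.97 CPM in L − N and 13.2, 11.5 and 7.17 in H − N, which overlap. HYAL4, a hyaluronidase relative that acts on chondroitin sulfate, was near the floor, with 0.446, 0.314 and 0.134 CPM in L − N and 1.31, 1.4 and 1.24 in L + N, and its log2 fold change in L + N was 2.11 (SE 0.672, adjusted p = 0.0703).

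**Figure D3:**
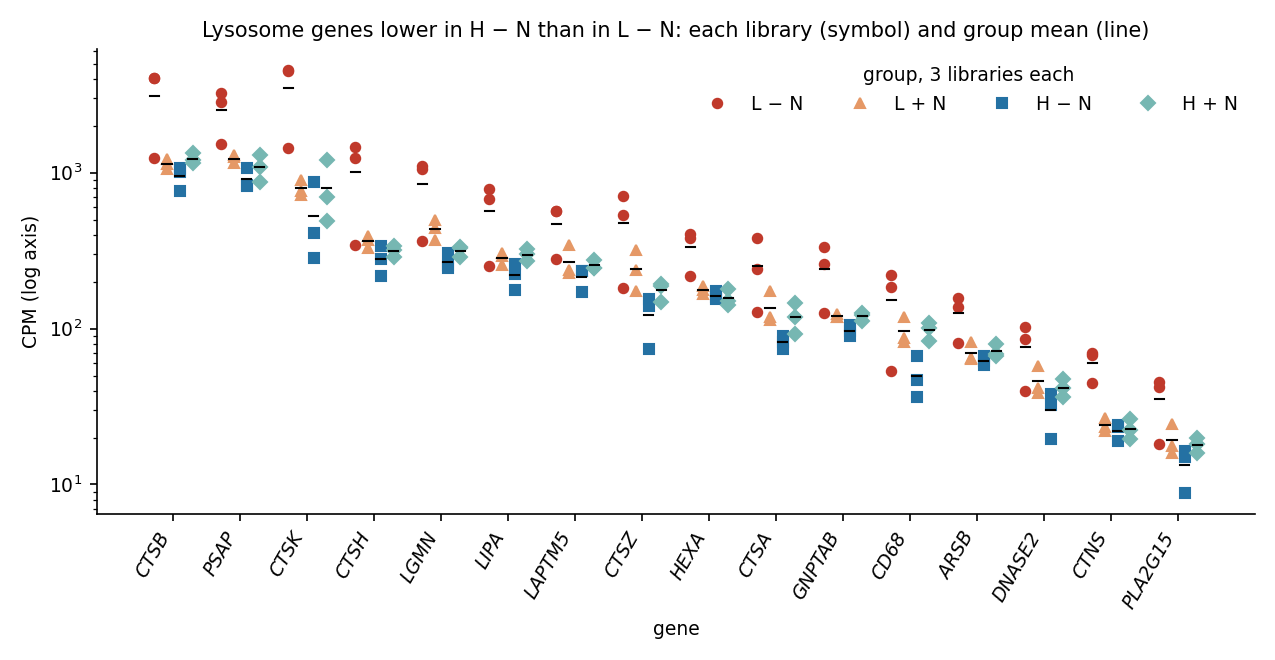
CPM of 16 of the 17 lysosome genes that were differentially expressed and lower in H − N than in L − N, on a log axis, for each of the 12 libraries (symbols) with the group means (lines), ordered by mean CPM. L − N replicates 2 and 3 are above the 9 libraries of the other groups for all 16 genes, and L − N replicate 1 for 5 of them.

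The 17 genes thus differed in how L − N replicate 1 behaved. For all 17, L − N replicates 2 and 3 were above the 9 libraries of the other groups. L − N replicate 1 was above them for 6, among them CTNS, CTSK, GNPTAB, HEXA and PSAP, and inside or below their range for the other 11. Over all 116 genes, the 3 L − N libraries were above the other 9 for 16 genes, against 5.28% of all genes tested, and replicates 2 and 3 for 64 genes, against 14.6%.

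NCG on the low-fiber diet was examined by comparing L + N with L − N. These comparisons share the L − N libraries with the one above, so their values are set side by side and are no independent support. In L + N, 5 lysosome genes were differentially expressed by edgeR, all lower, against a background of 3.99% in either direction and 0.671% lower. They were CTNS (log2 fold change −1.33 (SE 0.186, adjusted p = 0.00818)), CTSK (−2.14 (SE 0.512, adjusted p = 0.0268)), CTSB (−1.45 (SE 0.351, adjusted p = 0.0280)), CTSH (−1.48 (SE 0.397, adjusted p = 0.0405)) and PSAP (−1.05 (SE 0.253, adjusted p = 0.0277)). Without the fold change threshold, 26 were lower and 2 higher, against 3.63 and 5.97% of all genes. The median of the lysosome genes was −0.44, with −0.02 over all genes, and 21 were above 0, against 47.7% of all genes. CTNS passed in all 12 fits that left out 1 library. The count of differentially expressed lysosome genes was 1 when L + N replicate 1, 2 or 3, or L − N replicate 2 or 3, was left out (0.932 to 3.54% of all genes), and 24 without L − N replicate 1 (5.89%). By the adjusted p-value alone, the count was lowest at 1, without L − N replicate 3 or L + N replicate 2 (1.35 and 1.63% of all genes). It was highest at 46, without L − N replicate 1 (12.8%). With L − N replicate 1 alone, none of the 5 genes passed and the median was −0.09. CTSV, described with NCG, was then the 1 lysosome gene that passed, with a log2 fold change of −1.07 (edgeR's adjusted p = 0.0337), against 0.853% of all genes. The higher genes, AP1S3 (8.72, 12.7 and 9.13 CPM in L − N and 16.3, 16.8 and 18.7 in L + N, log2 fold change 0.76 (SE 0.216, adjusted p = 0.0486)) and AP4E1 (described with NCG), encode subunits of the adaptors AP-1 and AP-4. They were named after their values were seen.

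Between H + N, with both additions, and L − N, 9 lysosome genes were differentially expressed by edgeR, all lower in H + N, against 3.58% of all genes in either direction and 1.28% lower. Among them were the proteases CTSK (−2.13 (SE 0.512, adjusted p = 0.0332)), CTSH (−1.68 (SE 0.399, adjusted p = 0.0316)), LGMN (−1.41 (SE 0.325, adjusted p = 0.0297)) and CTSB (−1.34 (SE 0.350, adjusted p = 0.0412)), the glycosidase HEXA (−1.09 (SE 0.20, adjusted p = 0.0177)), PSAP (−1.22 (SE 0.254, adjusted p = 0.0232)), CTNS (−1.42 (SE 0.187, adjusted p = 0.0136)) and GNPTAB (log2 fold change −1.0, adjusted p = 0.0408). The values in brackets are log2 fold changes. By the adjusted p-value alone, 19 passed, all lower, against 3.66% of all genes. The median over the lysosome genes was −0.45, with 0.02 over all genes, and 22 of 116 were above 0, against 51.7% of all genes. Leaving out H + N replicate 1 or L − N replicate 3 gave a count of 0 differentially expressed lysosome genes (0.00651 and 0.0261% of all genes), H + N replicate 3 or L − N replicate 2 one of 1 (1.2 and 2.26%), and L − N replicate 1 one of 24 (6.11%). By the adjusted p-value alone, the count was lowest at 0, without H + N replicate 1 or L − N replicate 3 (0.00651 and 0.0261% of all genes). It was highest at 43, without L − N replicate 1 (11.9%). With L − N replicate 1 alone both counts were 0 (0.306% of all genes differentially expressed) and the median was −0.11. In all, 17 lysosome genes passed in at least 1 of the 3 comparisons with L − N, and CTNS, CTSK, CTSB, CTSH and PSAP did so in all 3.

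No lysosome gene passed in the comparisons of H + N with H − N and with L + N, while H − N was not compared with L + N. Between H + N and H − N, edgeR called 0 lysosome genes and 0 of all genes (0.0%), DESeq2 called 0 lysosome genes and 0.163% of all genes, and 8 had an unadjusted p-value under 0.05, against 8.67% of all genes. The log2 fold changes ran from −0.96 for ATP6V0A4 to 0.96 for CD68, with quartiles of −0.08 and 0.20, a median of 0.05 and a median standard error of 0.201. Between H + N and L + N, edgeR again called 0 lysosome genes and 0.0% of all genes, DESeq2 called 0 and 0.0131% of all genes, and 5 had an unadjusted p-value under 0.05, against 4.68% of all genes. The fold changes ran from −0.98 for CTSL to 0.55 for CTSW, with quartiles of −0.12 and 0.08. CTSL had 73.5, 34.7 and 21.6 CPM in L + N and 20.5, 22.4 and 22.7 in H + N, and the groups overlapped (adjusted p = 0.910 by edgeR).

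For dietary fiber (DF), both high-fiber groups against both low-fiber groups, edgeR called 0 lysosome genes, against 0.0261% of all genes. There were 42 with an unadjusted p-value under 0.05 (19.5% of all genes), and DESeq2 called 5, against 1.89% of all genes. The median was −0.20, with 0.02 over all genes. No lysosome gene had a smaller adjusted p-value than CTNS (log2 fold change −0.77 (SE 0.131, adjusted p = 0.0576)). LGMN, at −1.06 (SE 0.228, adjusted p = 0.0678), was the only lysosome gene for which the 6 high-fiber libraries lay below the 6 low-fiber libraries, against 0.404% of all genes. The lowest low-fiber library of LGMN had 365 CPM and the highest high-fiber library 332 CPM.

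The interaction asks whether the effect of NCG differed between the diets. By edgeR, 0 lysosome genes and 0.0% of all genes passed, while 40 lysosome genes had an unadjusted p-value under 0.05 against 12.8% of all genes, and DESeq2 called 6, against 1.2% of all genes. The interaction term was above 0 for 95 of 116 genes, against 49.4% of all genes, with a median of 0.44. CTNS had the smallest adjusted p-value, with a term of 1.37 (SE 0.262, adjusted p = 0.209), followed by CTSK with 2.75 (SE 0.708, adjusted p = 0.257). Without L − N replicate 1, edgeR called 23 lysosome genes and 2.25% of all genes, and it called none when any other single library was left out. Without L − N replicates 2 and 3, the median of the interaction terms was 0.088. The terms share the L − N libraries with the comparisons above and are no independent support. For CTNS and CTSK the L − N mean was the highest of the 4 group means.

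For NCG, both supplemented groups against both unsupplemented ones, edgeR and DESeq2 each called 0 lysosome genes at both thresholds, where edgeR called 1.8% and DESeq2 2.36% of all genes. By the adjusted p-value alone, 6 passed, against 7.27% of all genes, and 36 had an unadjusted p-value under 0.05 (23.6% of all genes). This count was 2 without L − N replicate 3 or H + N replicate 1, 3 to 9 without 1 of the other libraries except L − N replicate 1, 27 without L − N replicate 1 (8.01% of all genes), 17 with DESeq2 (13.3%) and 4 without L − N replicates 2 and 3 (4.35%). The 6 genes were singled out after their values were seen. Of the 12 fits that left out 1 library, CTSV and CTNS passed in 12, AP4E1 in 9, SLC17A5 and AP4S1 in 7 and LAPTM4A in 2. Of the 6, CTSV, AP4E1 and AP4S1 passed without L − N replicates 2 and 3, and CTNS, SLC17A5 and LAPTM4A did not. CTSV (gene identifier 396926, chromosome 10, 25202360 to 25208058), cathepsin V, stood at 493, 294 and 399 CPM in L − N, 381, 328 and 397 in H − N, 236, 231 and 237 in L + N and 261, 271 and 205 in H + N. Every library with NCG was below every library without it, on both diets, and the log2 fold change was −0.67 (SE 0.126, adjusted p = 0.0121). In CTSV, L − N replicate 1 was the highest library of its group, unlike in the cathepsins described above. SLC17A5, the exporter of sialic acid, also did not overlap, with 38.1, 40.6 and 44.2 CPM in L − N, 40.7, 31.9 and 38.2 in H − N, 28.0, 31.3 and 25.9 in L + N and 31.3, 31.7 and 26.6 in H + N (log2 fold change −0.42 (SE 0.0937, adjusted p = 0.0237)). These 2 were the only lysosome genes that were lower with NCG without overlap, against 0.769% of all genes.

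Higher with NCG by the adjusted p-value alone were 2 of the 116 lysosome genes (1.72%), a smaller share than the 5.67% of all genes. Both encode subunits of AP-4, an adaptor of the trans-Golgi network. AP4S1 had 14.7, 19.9 and 18.4 CPM in L − N, 12.7, 16.2 and 15.5 in H − N, 21.8, 24.2 and 20.4 in L + N and 25.2, 20.8 and 22.6 in H + N, and the 6 libraries with NCG were all above the other 6, which held for 3.22% of all genes (log2 fold change 0.48 (SE 0.114, adjusted p = 0.0300)). It overlaps STRN3 on the opposite strand. AP4E1 had 19.8, 29.0 and 26.3 CPM in L − N, 22.9, 35.2 and 36.9 in H − N, 40.8, 51.4 and 43.0 in L + N and 49.3, 41.0 and 35.6 in H + N, with some overlap (log2 fold change 0.63 (SE 0.147, adjusted p = 0.0281)). The other subunits of the complex, AP4B1 and AP4M1, had log2 fold changes of 0.06 and −0.05 (adjusted p = 0.771 and 0.859, edgeR). The last 2 of the 6, CTNS (−0.65 (SE 0.131, adjusted p = 0.0161)) and LAPTM4A (−0.41 (SE 0.108, adjusted p = 0.0422)), were lower with NCG on the log2 scale. For CTNS, H − N and the NCG groups overlapped, and for LAPTM4A the values were 607, 588 and 567 CPM in H − N and 581, 521 and 616 in H + N, which overlap too.

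**Figure D4:**
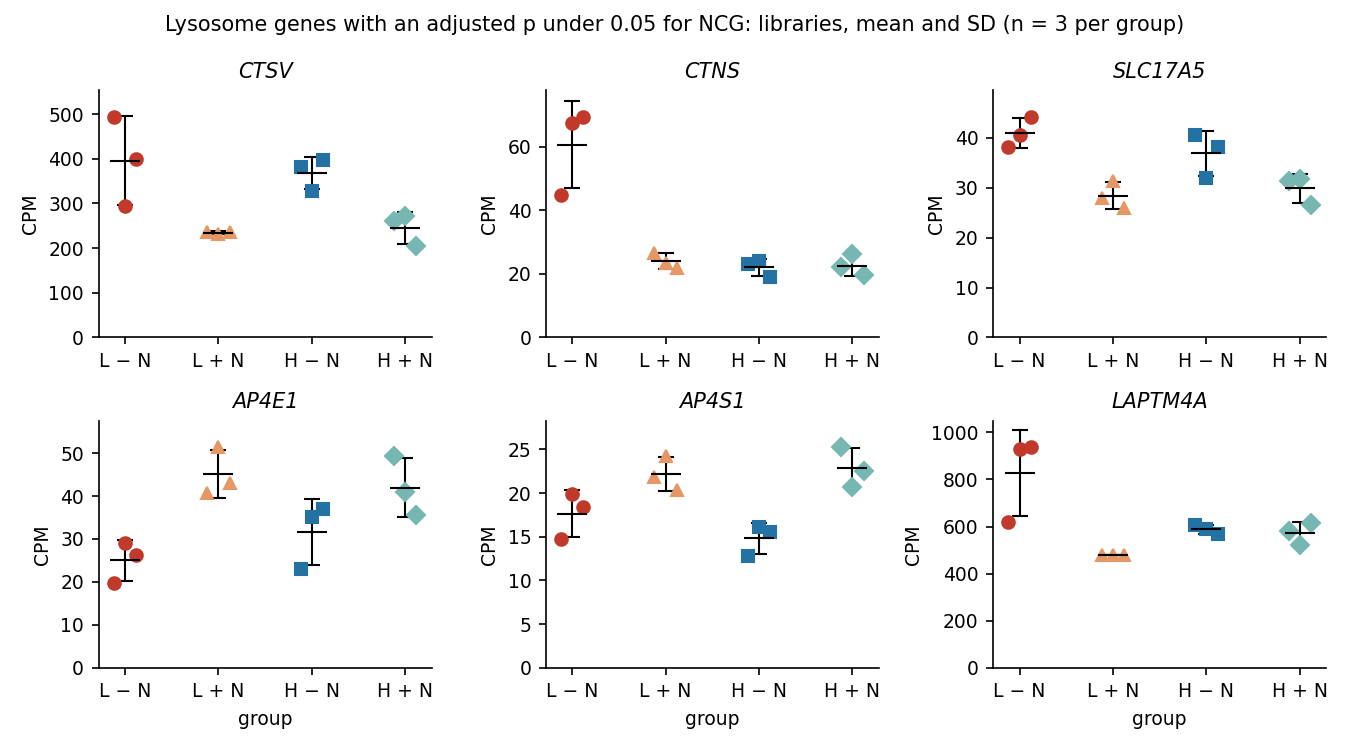
CPM of the 6 lysosome genes with an adjusted p-value under 0.05 for NCG, by group, for each library (symbols) with the mean and SD of 3 libraries (lines). For CTSV and SLC17A5 the libraries of both NCG groups lie below all others and for AP4S1 above them, while CTNS is high in L − N alone.

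Sums of CPM show how unevenly the roles took part. The 16 proteases summed to 5534, 16340.0 and 15020.0 CPM in L − N replicates 1, 2 and 3, and to 3313 to 5620.0 in the other 9 libraries. The lipid and nucleic acid hydrolases summed to 2693, 5651 and 4873 against 1846 to 2743, the glycosidases to 1248, 1846 and 1714 against 1014 to 1129, and the sulfatases to 1251, 1903 and 1693 against 1016 to 1171. For the membrane proteins the sums were 4018, 6375 and 6035 against 3471 to 3936, for the proton pump 515, 868 and 749 against 452 to 565, and for the sorting and coat proteins 2455, 3125 and 3103 against 2263 to 2614. In every role, L − N replicates 2 and 3 had the highest sums of the 12 libraries. Split by mean FPKM into sets of 58 genes, the more abundant lysosome genes held 13 of the 17 that were differentially expressed in H − N and had a median of −0.65. The less abundant held 4 and had −0.27.

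Macrophage markers moved in the same libraries. The summed level of 16 marker genes, all tested and none a lysosome gene of the list, was 1603, 3959 and 4250.3 CPM in L − N replicates 1, 2 and 3. It was 1297 to 1910.4 in L + N, 806 to 1183 in H − N and 1225 to 1601 in H + N. None of the 16 was at 0. By edgeR, at the same thresholds and relative to L − N, 10 of the 16 were differentially expressed in H − N, 2 in L + N and 4 in H + N, all lower. The shares of all genes differentially expressed and lower were 2.01, 0.671 and 1.28%. All 16 had a log2 fold change below 0 in each of the 3 comparisons. Without L − N replicates 2 and 3, 0 of the 16 passed in each of these comparisons. CD163, a scavenger receptor, had log2 fold changes of −2.02, −1.57 and −1.71, and CD14, a receptor for bacterial lipopolysaccharide, −1.56, −1.42 and −1.31 in the 3 comparisons. CD68, LAPTM5, CTSS and other lysosome genes are themselves strongly expressed in macrophages. The part of these cells in the values of the lysosome genes was not tested.

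**Figure D5:**
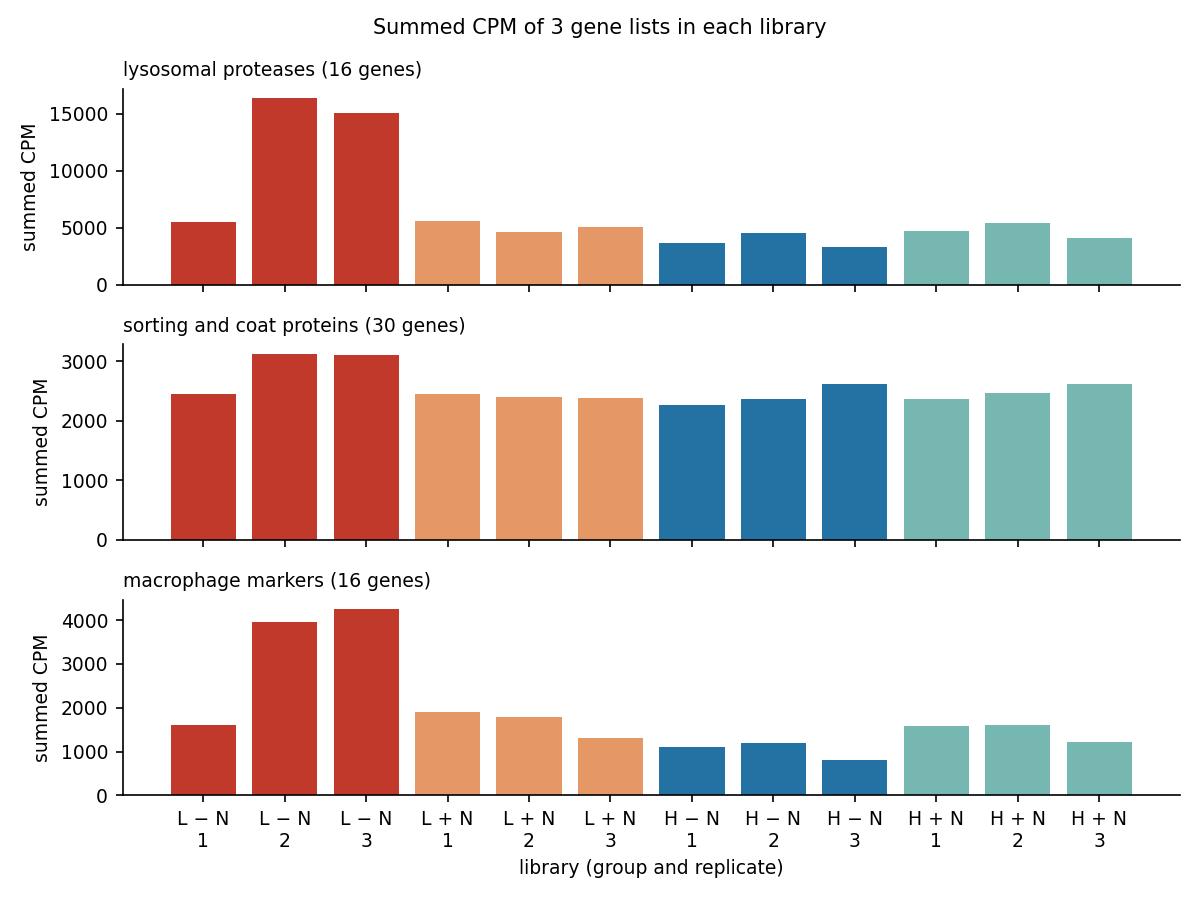
Summed CPM in each of the 12 libraries, coloured by group, of the 16 lysosomal proteases, the 30 sorting and coat proteins and 16 macrophage markers. The macrophage sums are 3959 and 4250 CPM in L − N replicates 2 and 3 and at most 1910 in the other 10 libraries, and the protease sums are highest in the same libraries.

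The markers of other cells were examined in the same way. Stromal and epithelial genes, which mark the labelled tissue, were present throughout, and 0 of 7 and 0 of 8 were differentially expressed in the comparisons with L − N. Stromal sums were 26404 to 29442.5 CPM in L − N and 25216 to 46552 in L + N. In H − N they were 34257 to 61116 and in H + N 33151 to 59295, above every L − N library. Epithelial sums were 1009 to 1482 CPM in L − N and 1427 to 1492 in L + N. In H − N they were 1536 to 2309, above every L − N library, and in H + N 1197 to 1330. By the adjusted p-value alone, 1 of 8 epithelial genes, CDH1, was higher in H − N, against 1.56% of all genes. Smooth muscle markers summed to 5197, 1614 and 2001 CPM in L − N and 797 to 1595 elsewhere, so that L − N replicate 1 was the high library. In L + N, 2 of 6 were differentially expressed and lower, against 0.671% of all genes. Red blood cell genes summed to 753, 62.6 and 514 CPM in L − N and 26.5 to 293 elsewhere, with 1 of 3 differentially expressed and lower in L + N. Endothelial markers summed to 1583, 1086 and 1337 and 760.1 to 1191 CPM, and 1 of 6 was differentially expressed and lower in L + N. Neutrophil, T and NK cell, and B and plasma cell markers had 0 called in these comparisons, with sums of 9.10 to 50.2, 81.0 to 215 and 198 to 793 CPM in L − N and 5.76 to 172, 109 to 190.4 and 114 to 553 in the other groups.

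Genes that work with the lysosome but carry no such annotation in the table were compared in the same way. Of all genes tested, 2.01, 0.671 and 1.28% were differentially expressed and lower in H − N, L + N and H + N. By the adjusted p-value alone, 3.71, 3.63 and 3.66% were lower. TFEB, TFE3, MITF and TFEC, related transcription factors of which some are known to drive lysosomal genes, did not pass in any comparison with L − N, and their log2 fold changes in H − N were −0.24, −0.33, −0.34 and −1.01 (adjusted p = 0.422, 0.246, 0.402 and 0.234, edgeR). Of 13 subunits of the cytosolic V1 sector of the proton pump, ATP6V1F was differentially expressed, in L + N (log2 fold change −1.0, SE 0.221, edgeR's adjusted p = 0.0200), and by the adjusted p-value alone 4 were lower in each of the 3 comparisons. Of 19 lysosomal proteins outside the pathway, PLD3, a nuclease of the organelle, was differentially expressed and lower in H − N (log2 fold change −1.54, SE 0.325, edgeR's adjusted p = 0.0288). Their sum was 1579.6, 4678 and 4248 CPM in L − N and 1469 to 2835 elsewhere. Of 17 core autophagy genes, 0 were differentially expressed, while 5, 6 and 6 were lower by the adjusted p-value alone in H − N, L + N and H + N, with medians of −0.32, −0.48 and −0.41. The Ragulator and Rag GTPases that link the lysosome to mTOR signaling (10 genes), and the HOPS tethers with RAB7 (10 tested), had 0 differentially expressed and medians between −0.31 and −0.23. By the adjusted p-value alone, 1, 2 and 1 of the Ragulator and Rag genes were lower in H − N, L + N and H + N. Of the HOPS and RAB7 genes, 1, 2 and 3 were lower. Without L − N replicates 2 and 3, the autophagy medians were −0.27, −0.34 and −0.37 in H − N, L + N and H + N. Those of the other lists in this paragraph then lay between −0.15 and 0.19. The autophagy genes summed to 2395, 2766 and 2835 CPM in L − N replicates 1, 2 and 3, and to 1665 to 2064 elsewhere.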

How the data were processed

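The authors deposited, for each gene and library, the counted reads without normalization and an FPKM value made from these counts, together with coordinates on Sscrofa11.1 and the KEGG annotation. The submitters' processing notes name fastp 0.22.0, HISAT2 2.1.0 and HTSeq 0.9.1, without roles. Libraries were described as strand-specific poly(A) libraries, and the counting strand is not given in the sources used here. Groups were read from the codes in the sample titles.

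Counts were fitted in edgeR 4.0.16 (R 4.3.3) with TMM scaling, filterByExpr (15351 genes kept) and one mean per group over 12 libraries, with 8 residual degrees of freedom. Adjusted p-values cover all genes tested. SE is the log2 fold change divided by the root of the F statistic, and CPM uses the TMM factors. DESeq2 1.42.0, RLE scaling, no filter, the compared groups alone, a block on the replicate number and leaving out each library were alternatives. FPKM served only for levels between genes. The method was tried on simulated counts with the same spread for all genes and changes planted in H − N. Their replicates were drawn alike, so they held no split within L − N like the one seen here. The members, role lists, related lists and marker lists were chosen with earlier results of these data known.

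Genes were named when differentially expressed, when highest in FPKM or in absolute log2 fold change of H − N within a role, or when on a list of well-known members. Genes beyond this rule were named after their values were seen. A few genes that met the rule are not reported here, though they are included in all counts, sums and medians. Sequences were not used here. Between replicates of a group, the counts differed by far more than counting error, with a biological coefficient of variation of 0.269, so that the 3 libraries per group rather than depth limit the precision.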

Additional observations from a re-analysis of the deposited data

How the results depend on the processing

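In the comparisons of H − N, L + N and H + N with L − N, 17, 5 and 9 lysosome genes were differentially expressed by edgeR. RLE scaling and no filter on low counts kept every count within 1.5 times. DESeq2 gave 20 in H − N (5.96% of all genes), 8 in L + N (5.76%) and 14 in H + N (6.45%). It gave 5 for DF (1.89%) and 6 for the interaction (1.2%). With the 2 groups alone in the fit, the counts were 0, 3 and 2, from fewer libraries. In the fit with a replicate block they were 9, 2 and 5. The shares of all genes in these settings are not given here, so these counts cannot be set against all genes. In the edgeR fit of all 12 libraries, 26, 28 and 19 passed by the adjusted p-value alone, and 6 for NCG. These compare with 5.27, 9.6, 7.97 and 7.27% of all genes. Same-number libraries were not paired by the data (18 pairs, r from −0.322 to 0.283, 3 above 0.1), so the block is given only here.

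Leaving out each library in turn, the counts ran from 0 to 30 in H − N, 1 to 24 in L + N, 0 to 24 in H + N, 0 to 8 for DF, 0 to 1 for NCG and 0 to 23 for the interaction. The medians of the log2 fold changes ran from −0.54 to −0.32 in H − N, −0.51 to −0.28 in L + N, −0.56 to −0.30 in H + N and 0.30 to 0.56 for the interaction. The upper count, other than for NCG, came without L − N replicate 1. In the fits with the upper counts, 7.24, 5.89 and 6.11% of all genes were differentially expressed in H − N, L + N and H + N. For DF, NCG and the interaction these shares were 2.11, 1.79 and 2.25%. Without L − N replicates 2 and 3, a setting chosen after seeing the data, the counts were 0, 1 and 0 and the medians −0.10, −0.094 and −0.11, with −0.047 for DF, −0.047 for NCG and 0.088 for the interaction. CTSH in L + N then reversed to 0.088 (edgeR's adjusted p = 0.896). The cause of these shifts was not tested. Of 59 values of single genes, 33 were called with all libraries. Without L − N replicates 2 and 3 all 33 lost their call, as did 17 with the block and 30 with the 2 groups alone, while 2 gained one with DESeq2 and 1 with RLE scaling.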
